A study of Homo sapiens with 6 samples.

Results

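DNA replication and nucleotide supply genes are described here in HK-2 cells after phosphoramidon. The 49 genes were taken as a named list of the replication machinery, from origin licensing to nucleotide synthesis, and were looked up by symbol among 38126 Ensembl gene IDs. All 49 were found, and all 49 were among the 16169 genes with enough fragments to test. HK-2 is a human kidney line of proximal tubular epithelial origin, immortalised with papillomavirus oncogenes, a product of which binds the retinoblastoma protein RB. Phosphoramidon blocks zinc peptidases, among them neprilysin. The libraries comprised 3 from cells exposed to phosphoramidon for 24 h and 3 from untreated cells, all in serum-free keratinocyte medium with EGF and pituitary extract and all treated near confluence. The labels give no dose of phosphoramidon. The titles of the untreated libraries also hold the unexplained letters CSE, while their treatment label reads untreated. Whether the replicates of a group came from separate dishes is not stated, so every p-value reflects library-to-library spread that could be technical alone.

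A cell licenses its replication origins in G1, when the origin recognition complex (ORC) with CDC6 and CDT1 loads the ring-shaped MCM helicase onto DNA. In S phase CDC45 and the GINS complex turn the ring into a moving helicase. DNA polymerase alpha with primase starts each strand, polymerases delta and epsilon extend it, and the PCNA clamp, loaded by replication factor C, holds them in place. Ribonucleotide reductase and thymidylate enzymes supply the deoxynucleotides. Many of these genes are targets of E2F transcription factors, which RB holds back until cells enter the cycle. Proximal tubule cells in the kidney seldom divide, whereas the immortalised line divides in culture.

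E2F-type and CCAAT letters in the promoters are shown first, because E2F targets make up much of the list and CCAAT boxes are common in promoters of cell cycle genes. RefSeq promoters on GRCh38.p14, 300 bases each from 250 before to 50 after the transcript start, were given for 42 of the 49 genes, and the first listed was used. The 4 shown are those of RRM2, the member with the highest fold change, E2F1, a member that rose, MCM6, whose level did not pass the test, and MCM2, a member that fell. Each is in lower case, 5′ to 3′ on the strand of the gene, with capitals for the E2F-type letters TTTCCCGC, TTTCGCGC, TTTGCCGC or TTTGGCGC and for CCAAT, on either strand. On GRCh38.p14 they lie at chr2:10122489-10122788 (RRM2, plus strand), chr20:33686336-33686635 (E2F1, minus strand), chr2:135876394-135876693 (MCM6, minus strand) and chr3:127598161-127598460 (MCM2, plus strand).
RRM2: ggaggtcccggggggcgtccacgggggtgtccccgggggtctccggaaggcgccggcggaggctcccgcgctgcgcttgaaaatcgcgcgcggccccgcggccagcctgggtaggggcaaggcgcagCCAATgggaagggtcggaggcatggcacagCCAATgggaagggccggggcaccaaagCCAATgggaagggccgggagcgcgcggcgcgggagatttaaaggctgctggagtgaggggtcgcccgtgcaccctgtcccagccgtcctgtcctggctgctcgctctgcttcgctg
E2F1: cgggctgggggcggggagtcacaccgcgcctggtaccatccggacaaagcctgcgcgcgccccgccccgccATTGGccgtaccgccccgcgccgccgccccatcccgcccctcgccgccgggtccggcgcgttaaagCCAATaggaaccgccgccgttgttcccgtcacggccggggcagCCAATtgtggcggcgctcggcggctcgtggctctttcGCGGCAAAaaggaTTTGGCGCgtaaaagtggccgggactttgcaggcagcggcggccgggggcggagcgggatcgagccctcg
MCM6: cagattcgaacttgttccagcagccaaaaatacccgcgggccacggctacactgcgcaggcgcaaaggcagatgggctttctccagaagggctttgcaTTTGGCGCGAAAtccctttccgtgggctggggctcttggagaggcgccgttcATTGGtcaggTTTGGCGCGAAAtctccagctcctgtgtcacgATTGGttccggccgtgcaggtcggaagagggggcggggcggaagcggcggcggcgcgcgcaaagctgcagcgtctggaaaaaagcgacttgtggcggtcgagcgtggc
MCM2: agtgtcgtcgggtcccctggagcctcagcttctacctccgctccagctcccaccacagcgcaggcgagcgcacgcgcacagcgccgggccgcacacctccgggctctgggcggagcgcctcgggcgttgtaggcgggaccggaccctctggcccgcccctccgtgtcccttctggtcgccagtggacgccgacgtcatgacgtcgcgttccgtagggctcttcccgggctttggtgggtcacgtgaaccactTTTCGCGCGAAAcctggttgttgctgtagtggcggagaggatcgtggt

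The RRM2 window held 3 CCAAT boxes and no E2F-type match. In the E2F1 window 2 E2F-type matches began 33 and 20 bases before the transcript start, beside 3 CCAAT boxes. The MCM6 window held 4 matches in 2 blocks, in each of which a match on one strand overlaps a match on the other, and both were counted. It also held 2 CCAAT boxes. The MCM2 window had such a block of 2 matches just after the start and no CCAAT. An E2F-type match was found in 21 of the 42 promoters of members (50%), against 5.21% of 11438 promoters of tested genes and 3.33% of 27305 promoters in all. It was found in 9 of 21 promoters of members that rose, in 11 of 19 of members not called and in 1 of 2 of members that fell. The difference between these shares was not tested. Only the E2F-type letters listed above were searched, and near forms were not counted. TTTGGCGGG, for example, stands in the windows of CDC45, MCM10 and CDC6, which rose, and of CDT1 and POLA2, which were not called. CCAAT was found in 24 of 42 (57.1%), against 36.6% of promoters of tested genes, and in 15 of 21 promoters of members that rose, 8 of 19 of members not called and 1 of 2 of members that fell. The letters TTTGAA or TTCGAA, known as the CHR element of many mitotic genes, were in 2 of 42 (4.76%), against 11.1% of promoters of tested genes. A match describes letters in this window and is no evidence of binding.

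Expression was deposited as FPKM, fragments per kilobase of gene length scaled to the assigned fragments of the library. For most genes that length matched all annotated exons merged, which can exceed the transcript in use. Levels can therefore be set side by side between genes only roughly. Assigned totals ran from 18690100 to 24919567 fragments in phosphoramidon libraries and from 23493830 to 24815377 in untreated libraries, and a fragment on a 1 kb gene was worth 0.0401 to 0.0535 FPKM. The proximal tubule regulator PAX8 was present (70.5 ± 1.6 FPKM in phosphoramidon and 63.7 ± 1.91 FPKM in untreated libraries, SD, n = 3 each). Differentiated markers were low or absent: LRP2 had a mean of 0.00212 FPKM with phosphoramidon and 0.00176 FPKM without it, and SLC22A6 was listed at 0 in every library. CUBN, AQP1, SLC5A2, ANPEP and ALPL reached 0.343 FPKM at most in a library, and none was called. Of the low tubule markers, GATM was higher with phosphoramidon (1.17 ± 0.00875 and 0.784 ± 0.0934 FPKM, log2 fold change 0.46, limma adjusted p = 0.02). SLC34A1 (0.0533 ± 0.0282 and 0.161 ± 0.0499 FPKM, -0.80, adjusted p = 0.017) and GGT1 (0.528 ± 0.0659 and 0.833 ± 0.183 FPKM, -0.62, adjusted p = 0.022) were lower. Of markers of other cells, the endothelial, leukocyte and podocyte genes PECAM1, VWF, CDH5, PTPRC, CD68 and NPHS1 stayed below 0.1 FPKM in every library. The fibroblast markers DCN (0.180 ± 0.0539 and 0.529 ± 0.0366 FPKM) and PDGFRB (0.193 ± 0.0594 and 0.329 ± 0.0467 FPKM) were low and fell with phosphoramidon. The part of these tubule and fibroblast markers in the results below was not tested.

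Replication genes tended to be higher after phosphoramidon, while no gene of the MCM ring that licensing loads passed the test upwards. Of the 49 members, 23 rose (46.9%), 3 fell (6.12%) and 23 did not pass limma's test at a Benjamini-Hochberg adjusted p of 0.05 over all tested genes. Over all 16169 tested genes, 33.6% were called, 15.6% higher and 17.9% lower. Members had a median log2 fold change of 0.16, all tested genes one of 0.009. Most members changed little: only RRM2 passed a test against a change of 1.5-fold (limma's treat), which 0.148% of tested genes passed upwards and 0.656% downwards. Fold changes here compare log2(FPKM + 0.1) after TMM factors between libraries (0.9643 to 0.99 in untreated and 1.012 to 1.038 in phosphoramidon libraries). With these factors, rises are smaller and falls are larger than in the deposited FPKM printed beside them (MCM2 -0.24, against -0.17 without the factors). Without these factors 28 members rose and 2 fell, and 3648 genes in all were higher and 2169 lower, against 2530 and 2902 with them. Leaving out each library in turn left 18 to 21 members higher and 2 to 3 lower. In cell populations, a larger share of cells in S phase and more RNA per cell cannot be told apart.

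In the deposited FPKM, the phosphoramidon libraries all lay above the untreated ones for 32 members (65.3%) and all below for 3 (6.12%). The same held for 31.3% and 18.4% of all tested genes. After the factors, the median log2 difference of the 49 members from the untreated mean was 0.17, 0.18 and 0.17 in phosphoramidon replicates 1 to 3, against 0.02, -0.02 and 0.00 in untreated replicates 1 to 3. No single phosphoramidon library stood apart in this measure.

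**Figure D1:**
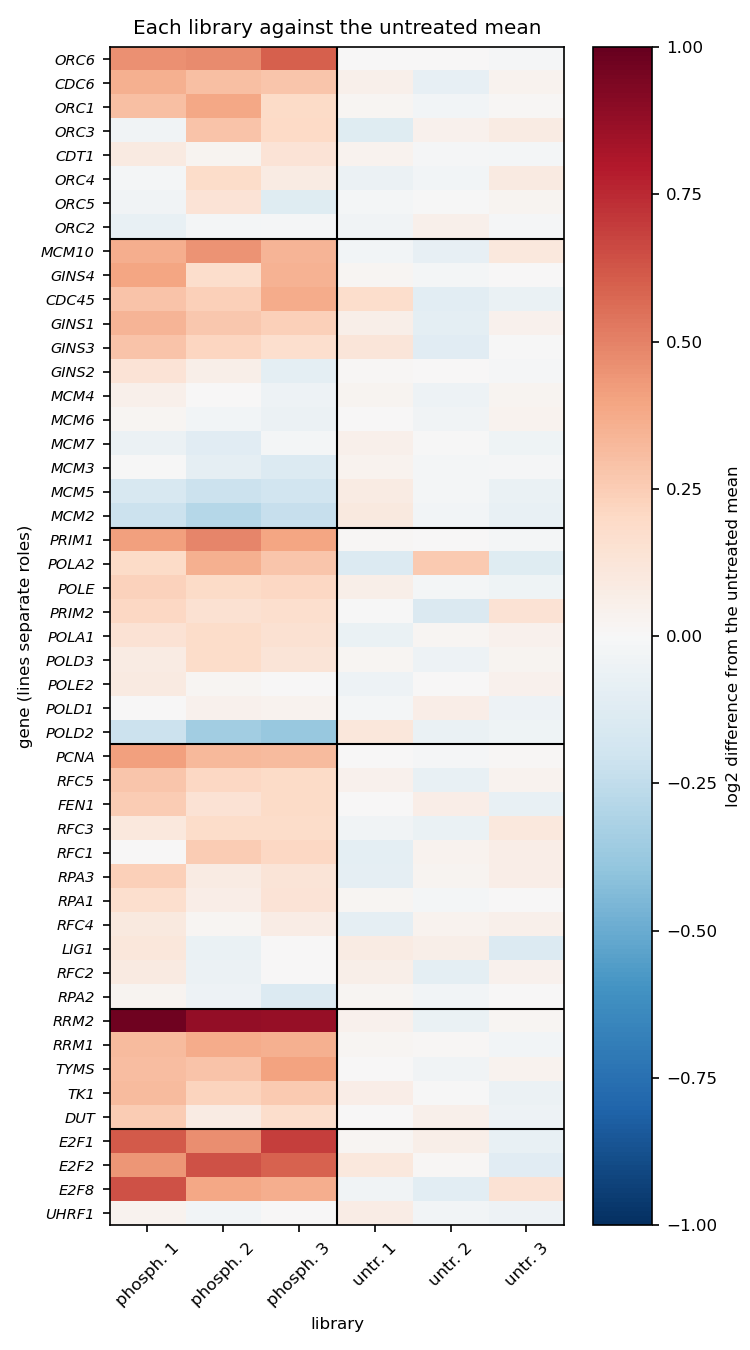
Log2 difference of each of the 49 genes in each library from the mean of the untreated libraries (log2(FPKM + 0.1) after TMM factors), with phosphoramidon libraries on the left, untreated libraries on the right and lines between roles. RRM2 is high in all 3 phosphoramidon libraries, and MCM2, MCM5 and POLD2 are low in them.

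Levels spanned a wide range. PCNA was highest, at 182 ± 4.75 FPKM in phosphoramidon and 136 ± 0.953 FPKM in untreated libraries. The others above 50 FPKM in untreated libraries were MCM7, TK1, MCM4, MCM3 and MCM6, 6 genes with PCNA. In untreated libraries PCNA, MCM7 (66.6 to 70.5 FPKM), TK1 (61 to 66 FPKM) and MCM4 (58.4 to 60.5 FPKM) followed each other without overlap. Below 5 FPKM in untreated libraries lay GINS3, GINS4, E2F8, E2F2 and POLA2, 5 genes. POLA2, the B subunit of polymerase alpha, had 0.644, 0.742 and 0.707 FPKM with phosphoramidon, against 0.466, 0.665 and 0.478 FPKM without it. The groups overlapped (log2 fold change 0.28 ± 0.16, SE, adjusted p = 0.21). In GENCODE 29, 35.1% of its exon bases are shared with a gene on the same strand, AP000944.2, so its level is uncertain where fragments in shared exons were split or dropped.

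Nucleotide supply was the role in which every member rose (5 of 5, against 15.6% of all tested genes). RRM2, the small subunit of ribonucleotide reductase and the limiting one in S phase (ENSG00000171848, chromosome 2, 10120698 to 10131419 on GRCh38), had 41.9, 39.8 and 40.1 FPKM in phosphoramidon replicates 1 to 3, against 21.0, 20 and 20.8 FPKM in untreated replicates 1 to 3. All phosphoramidon libraries lay well above all untreated ones, and the fold change was 1.87 (log2 0.91 ± 0.05, SE, adjusted p = 7.4e-06, and adjusted p = 0.0093 against 1.5-fold). RRM1, the large subunit (chromosome 11, 4094707 to 4138876), had 35.3, 37.1 and 37.1 FPKM with phosphoramidon, against 27.3, 27.9 and 26.6 FPKM without it. It rose by less (log2 fold change 0.35 ± 0.04, adjusted p = 2.4e-04). The ratio of RRM2 to RRM1, looked at after their values were seen and free of any scaling between libraries, was 1.19, 1.07 and 1.08 in phosphoramidon libraries and 0.770, 0.717 and 0.783 in untreated libraries. RRM2 FPKM thus exceeded RRM1 FPKM in every phosphoramidon library and in no untreated library. Where the ratio crosses 1 depends on the gene lengths used (merged exons of 5323 bases for RRM2 and 4177 for RRM1), while its rise between groups does not. In GENCODE 29, 20.2% of RRM2 exon bases are shared with AC007240.1 on the same strand.

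The thymidylate enzymes among the nucleotide supply members rose as well. Outside these members, the thymidylate kinase DTYMK did not pass (log2 fold change -0.03, limma adjusted p = 0.69). Nor did the thymidine kinase TK2 (-0.2, adjusted p = 0.2). DTYMK and TK2 were named after their values were seen. TYMS, thymidylate synthase, which makes dTMP from dUMP, had 22.6, 22.6 and 24.8 FPKM with phosphoramidon, against 17.5, 17.4 and 18.0 FPKM without it (log2 fold change 0.33 ± 0.05, adjusted p = 8.3e-04). Its exons overlap those of ENOSF1 on the opposite strand over 39.1% of their bases, and the use of strand in counting is not given. TK1, the thymidine kinase of the salvage route, had 82.3, 78.4 and 81.6 FPKM with phosphoramidon, against 66.0, 64.6 and 61.0 FPKM without it (0.27 ± 0.04, adjusted p = 0.0024). The groups did not overlap in either gene. DUT, the dUTPase that keeps uracil out of DNA, was near the threshold at 11.2 ± 0.617 FPKM with phosphoramidon and 9.47 ± 0.445 FPKM without it (0.17 ± 0.06, adjusted p = 0.046). Its call was lost on leaving out phosphoramidon replicate 1 or 3 or any untreated replicate (log2 fold change 0.13 to 0.22, adjusted p 0.032 to 0.13). DUT has 8 pseudogenes named after it, which together reached 2.29 FPKM in a library.

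Origin licensing rose in 3 of 8 members (37.5%) and fell in 0, against 15.6% and 17.9% of all tested genes. ORC6, the smallest ORC subunit and the least tightly bound in human cells (chromosome 16, 46689643 to 46698394), had 13, 13.4 and 14.8 FPKM with phosphoramidon, against 9.09, 9.31 and 9.06 FPKM without it (log2 fold change 0.51 ± 0.05, adjusted p = 1.7e-04). ORC1, the subunit whose level follows the cell cycle in human cells, had 12.2, 13.1 and 11.6 FPKM with phosphoramidon, against 9.52, 9.44 and 9.57 FPKM without it (0.29 ± 0.06, adjusted p = 0.0045). CDC6, the ATPase that works with ORC to load the helicase, had 24.3, 23.7 and 23.5 FPKM with phosphoramidon, against 18.7, 17.5 and 18.7 FPKM without it (0.31 ± 0.05, adjusted p = 0.0017). The groups did not overlap in any of these genes. The remaining ORC subunits had log2 fold changes of -0.03 ± 0.05 (ORC2), 0.15 ± 0.09 (ORC3), 0.08 ± 0.07 (ORC4) and -0.01 ± 0.07 (ORC5), and none passed. ORC3 passed without phosphoramidon replicate 1 (adjusted p = 0.035). The helicase loader CDT1 had 14.2 ± 0.641 and 12.8 ± 0.213 FPKM (0.09 ± 0.05, adjusted p = 0.18, 95% interval -0.02 to 0.19). Without the TMM factors CDT1 passed (0.16, adjusted p = 0.027).

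**Figure D2:**
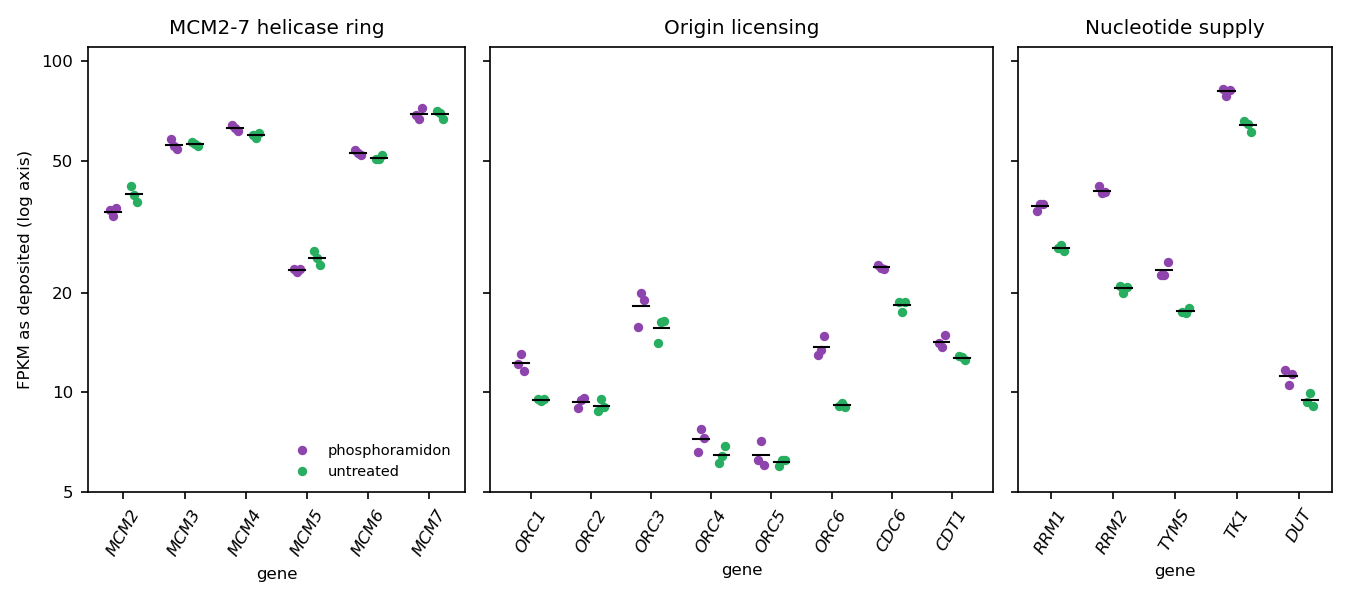
FPKM as deposited (log axis) of the genes of the MCM ring, of origin licensing and of nucleotide supply in each library, phosphoramidon left of untreated for each gene, with a bar at the mean. RRM1 and RRM2 separate between groups and change order, MCM3 and MCM7 overlap, MCM4 and MCM6 lie slightly higher with phosphoramidon, and MCM2 and MCM5 lie lower with it.

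The helicase genes divided between the ring and the factors that activate it. None of the 6 ring genes passed the test upwards. MCM2 (ENSG00000073111, chromosome 3, 127598223 to 127622436) had 35.4, 34 and 35.9 FPKM with phosphoramidon, against 41.8, 39.3 and 37.5 FPKM without it, with no overlap (log2 fold change -0.24 ± 0.05, adjusted p = 0.0069). MCM5 (chromosome 22, 35400063 to 35425430) had 23.6, 23.0 and 23.6 FPKM with phosphoramidon, against 26.6, 25.5 and 24.2 FPKM without it (-0.19 ± 0.05, adjusted p = 0.016). The MCM5 groups came within 1 FPKM of each other, and it did not pass on leaving out phosphoramidon replicate 2 (adjusted p = 0.059) or the TMM factors (-0.12, adjusted p = 0.062). MCM3 (-0.08 ± 0.04), MCM4 (0.00 ± 0.04), MCM6 (-0.02 ± 0.04) and MCM7 (-0.06 ± 0.04) did not pass, and their 95% intervals together ran from -0.18 to 0.10. In the deposited FPKM, before the TMM factors, the phosphoramidon libraries lay above the untreated ones for MCM4 (61.2 to 64.1 and 58.4 to 60.5 FPKM) and narrowly for MCM6 (52.1 to 53.7 and 50.5 to 52.1 FPKM, the nearest libraries being equal as rounded). The summed FPKM of the ring was 303, 295 and 299 in phosphoramidon libraries and 306, 299 and 296 in untreated libraries, and the groups overlapped. In MCM2, 22.7% of exon bases are shared with AC023593.1 on the opposite strand.

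The activating factors were mostly higher. MCM10, which is needed to fire the loaded helicase and is no part of the ring, had 7.18, 7.71 and 7.24 FPKM with phosphoramidon, against 5.21, 5.14 and 5.76 FPKM without it (log2 fold change 0.38 ± 0.06, adjusted p = 0.0023). GINS1 had 20.5, 19.8 and 19.6 FPKM with phosphoramidon, against 16.1, 14.8 and 16.0 FPKM without it (0.28 ± 0.05, adjusted p = 0.0044). GINS4 had 6.02, 5.22 and 5.97 FPKM with phosphoramidon, against 4.39, 4.40 and 4.39 FPKM without it (0.31 ± 0.07, adjusted p = 0.0096). The groups were apart in all of these. CDC45, the partner of GINS, rose (0.30 ± 0.08, adjusted p = 0.019) but not on leaving out phosphoramidon replicate 3 or untreated replicate 2 or 3 (adjusted p up to 0.063). GINS3 rose narrowly (0.22 ± 0.07, adjusted p = 0.042), a call that held in 1 of 6 fits with a library left out, that without untreated replicate 1. GINS2 had 0.03 ± 0.06 (adjusted p = 0.71). The summed FPKM of the 4 GINS genes was 45.9, 43.6 and 42.9 in phosphoramidon libraries and 37.2, 35.5 and 36.7 in untreated libraries. In the role 5 of 12 genes were higher (41.7%) and 2 lower (16.7%), against 15.6% and 17.9% of all tested genes. These counts became 3 higher without phosphoramidon replicate 3, untreated replicate 2 or untreated replicate 3, and 1 lower without phosphoramidon replicate 2.

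Among polymerase and primase genes 3 of 9 rose (33.3%) and 1 fell (11.1%), against 15.6% and 17.9% of all tested genes. PRIM1, the catalytic primase subunit that makes the RNA primer (chromosome 12, 56731596 to 56752373), had 8.68, 9.32 and 8.81 FPKM with phosphoramidon, against 6.26, 6.41 and 6.18 FPKM without it (log2 fold change 0.43 ± 0.05, adjusted p = 3.4e-04). In GENCODE 29, 14.9% of its exon bases are shared with AC117378.1 on the same strand. POLE, the catalytic subunit of the leading-strand polymerase epsilon, had 9.68, 9.56 and 9.77 FPKM with phosphoramidon, against 8.21, 7.95 and 7.70 FPKM without it (0.21 ± 0.05, adjusted p = 0.011). POLA1, the catalytic subunit of polymerase alpha, had 16.3, 17 and 16.9 FPKM with phosphoramidon, against 13.5, 14.6 and 14.7 FPKM without it (0.16 ± 0.04, adjusted p = 0.023). It did not pass on leaving out phosphoramidon replicate 2 or 3 or untreated replicate 1 (adjusted p up to 0.081).

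POLD2, an accessory subunit of polymerase delta (chromosome 7, 44114681 to 44124358), went the other way. It had 21.0, 19.4 and 19.2 FPKM with phosphoramidon, against 25.1, 22.8 and 22.7 FPKM without it, with no overlap (log2 fold change -0.31 ± 0.06, adjusted p = 0.0057). It fell in every fit with a library left out and without the TMM factors (-0.24, adjusted p = 0.0093). Its partners POLD1, the catalytic subunit (0.03 ± 0.05), and POLD3 (0.13 ± 0.06, adjusted p = 0.11) did not pass, nor did PRIM2 (0.18 ± 0.07, adjusted p = 0.094) or POLE2 (0.04 ± 0.05). PRIM2 passed without untreated replicate 3 (adjusted p = 0.02). Without the TMM factors PRIM2 (0.25) and POLD3 (0.20) passed, each with adjusted p = 0.023, which raised the count of this role to 5 higher.

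**Figure D3:**
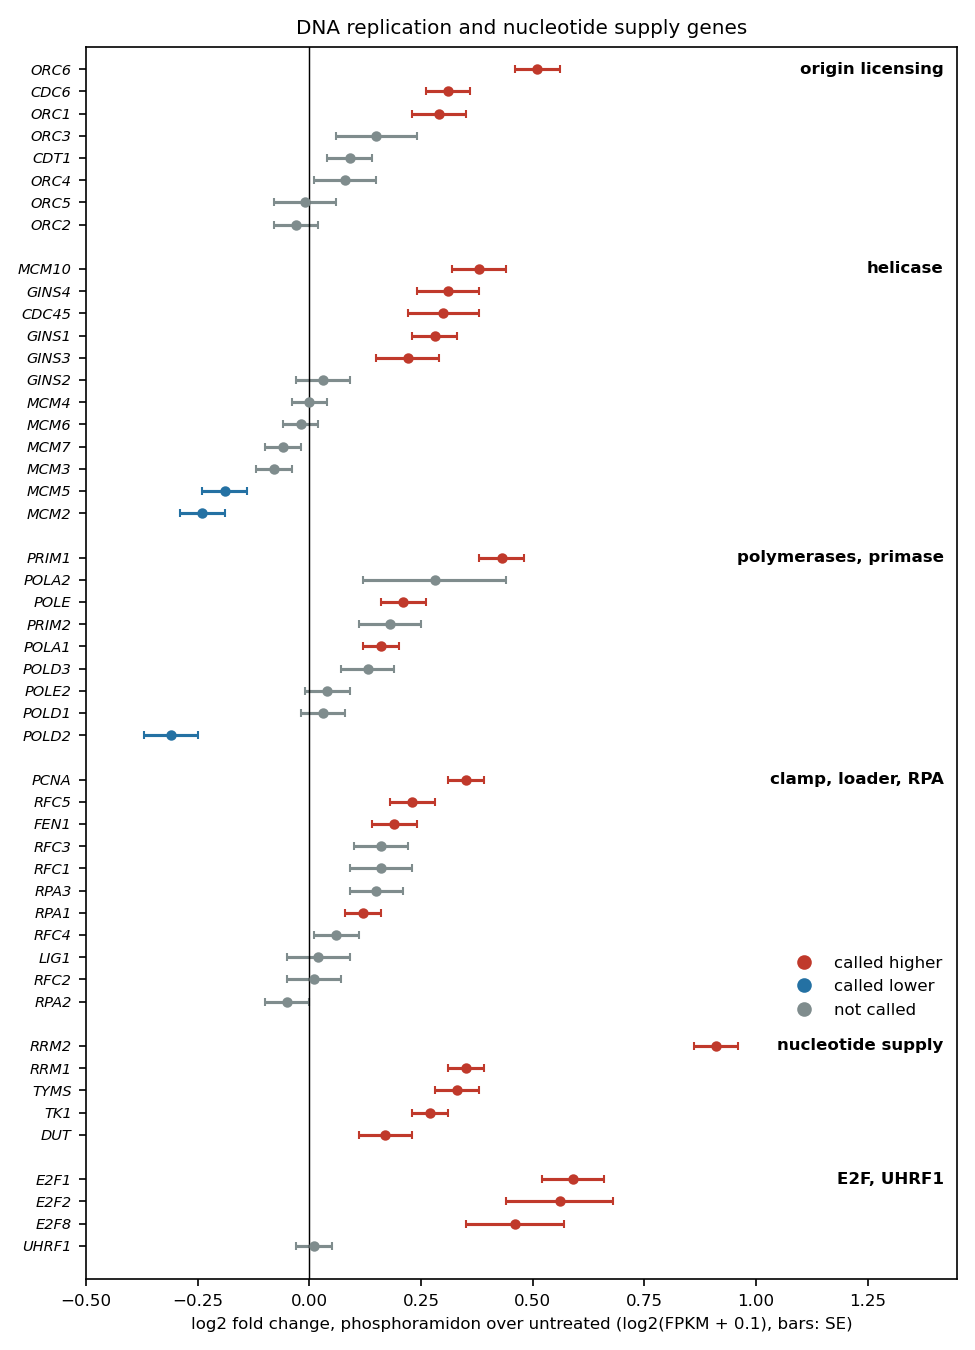
Log2 fold change of each of the 49 genes, phosphoramidon over untreated, grouped by role, with SE as bars and the limma call as colour (3 libraries per group). RRM2 has the highest value at 0.91 and POLD2 the lowest at -0.31, and 5 of 5 nucleotide supply genes are called higher.

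In the group of clamp, clamp loader, strand processing and single-strand binding genes, 4 of 11 rose (36.4%) and 0 fell. The shares over all tested genes were 15.6% and 17.9%. PCNA, the sliding clamp (chromosome 20, 5114953 to 5126626), had 187, 179 and 180 FPKM in phosphoramidon libraries, against 135, 137 and 136 FPKM in untreated libraries (log2 fold change 0.35 ± 0.04, adjusted p = 3.1e-04). Its 3 pseudogenes reached 0.140 FPKM at most. RFC5, a small subunit of the clamp loader, had 16.8, 16.2 and 16.2 FPKM with phosphoramidon, against 13.6, 12.8 and 13.6 FPKM without it (0.23 ± 0.05, adjusted p = 0.0089). The groups did not overlap in either gene. The other loader subunits did not pass: RFC1 had 0.16 ± 0.07, RFC2 0.01 ± 0.06, RFC3 0.16 ± 0.06 and RFC4 0.06 ± 0.05 on the log2 scale. RFC1 passed without phosphoramidon replicate 1 (adjusted p = 0.022), and RFC3 without untreated replicate 3 (adjusted p = 0.02) and without the TMM factors (adjusted p = 0.016).

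FEN1, the flap endonuclease that trims Okazaki fragments, had 27.9, 26.2 and 27.4 FPKM with phosphoramidon, against 22.4, 24.0 and 21.4 FPKM without it (log2 fold change 0.19 ± 0.05, adjusted p = 0.017). It did not pass on leaving out phosphoramidon replicate 1 or untreated replicate 3 (adjusted p up to 0.052). LIG1, the ligase that seals the fragments, had 0.02 ± 0.07 (adjusted p = 0.87), with overlapping groups. RPA1, the large subunit of the single-strand binding complex, had 45.4, 42.7 and 45.6 FPKM with phosphoramidon, against 39.0, 39.0 and 38.8 FPKM without it (0.12 ± 0.04, adjusted p = 0.044). That call held in 1 of 6 fits with a library left out, that without phosphoramidon replicate 2 (adjusted p 0.037 to 0.13 over the 6). RPA2 (-0.05 ± 0.05) and RPA3 (0.15 ± 0.06) did not pass, and RPA3 passed without the TMM factors (adjusted p = 0.027).

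The 3 E2F genes on the list rose. Of the E2F genes outside it, given further below, E2F7 rose, E2F4 fell and E2F3, E2F5 and E2F6 did not pass. E2F1, an activator of replication genes (chromosome 20, 33675683 to 33686404), had 15.4, 14.1 and 16.6 FPKM with phosphoramidon, against 9.67, 10.2 and 9.12 FPKM without it (log2 fold change 0.59 ± 0.07, adjusted p = 2.9e-04). E2F2, also an activator, had 1.32, 1.55 and 1.52 FPKM with phosphoramidon, against 0.982, 0.934 and 0.834 FPKM without it (0.56 ± 0.12, adjusted p = 0.0071). E2F8, an atypical family member that represses, had 3.11, 2.64 and 2.62 FPKM with phosphoramidon, against 1.82, 1.78 and 2.1 FPKM without it (0.46 ± 0.11, adjusted p = 0.01). The groups did not overlap in any of the 3. UHRF1, which guides maintenance methylation of new DNA strands, had 40.6 ± 0.848 FPKM with phosphoramidon and 38.6 ± 1.44 FPKM without it (0.01 ± 0.04, adjusted p = 0.95, 95% interval -0.09 to 0.11).

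Other replication genes, 76 in 5 lists that share no gene with the 49, were looked at for the same comparison. All 76 were tested, and 28 rose (36.8%) and 12 fell (15.8%), against 15.6% and 17.9% of all tested genes. The median of the 76 on the log2 scale was 0.12. Among licensing control genes and firing kinases 9 of 13 rose and 0 fell. The lowest p-values there were those of CCNA2, cyclin A (42.6 ± 1.24 FPKM with phosphoramidon and 24.9 ± 1.53 FPKM without it, SD, n = 3 each, log2 fold change 0.70, limma adjusted p = 6.4e-05), and DTL, which targets CDT1 for destruction (30.6 ± 0.474 and 22.1 ± 0.201 FPKM, 0.40). In fork protection, checkpoint and chromatin assembly genes 6 of 14 rose and 0 fell, with the lowest p for the histone chaperone ASF1B (35.8 ± 0.795 and 16.3 ± 0.473 FPKM, 1.06) and the checkpoint mediator CLSPN (13.2 ± 1.08 and 8.50 ± 0.376 FPKM, 0.56). ASF1B also passed the test against 1.5-fold (adjusted p = 7.7e-04). Without the TMM factors 10 of those 14 rose.

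The list of remaining polymerase subunits, primer removal genes and topoisomerases also held RFWD3, a ubiquitin ligase that is none of these. In it 3 of 10 rose (30%, against 15.6% of all tested genes) and 0 fell. The nuclease and helicase DNA2 (12.2 ± 0.326 and 8.07 ± 0.578 FPKM, log2 fold change 0.53), the topoisomerase TOP2A (98.8 ± 14.4 and 58.2 ± 7.80 FPKM, 0.69) and the RPA-binding ubiquitin ligase RFWD3 (0.17) were those that rose. The list of further E2F, DP and pocket protein genes also held CDKN1A, MYBL2, HELLS, DNMT1 and USP1, which belong to none of these families. In this list 6 of 15 rose, with the lowest p for the atypical E2F7 (8.33 ± 0.110 and 4.62 ± 0.313 FPKM, 0.77) and the pocket protein RBL1 (11.5 ± 0.725 and 8.49 ± 0.0988 FPKM, 0.37). The others that rose were all from outside these families: CDKN1A (0.21), MYBL2 (0.29), HELLS (0.19) and USP1 (0.25). E2F4, which works with the pocket proteins in repression, fell (13.1 ± 0.5 and 14.5 ± 0.122 FPKM, -0.21, adjusted p = 0.011). It was the sole member of that list to fall, except with voom or without phosphoramidon replicate 1, where 2 fell. E2F3 (15.1 ± 0.654 and 15.3 ± 1.19 FPKM, -0.09), E2F5 (-0.15), E2F6 (0.02), TFDP1 (-0.02) and TFDP2 (-0.14), named after their values were seen, did not pass. Nor did the pocket protein genes RB1 (0.17) and RBL2 (0.06), or DNMT1 (0.06), all of which passed without the TMM factors.

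Of further nucleotide supply genes, 4 of 24 rose (16.7%) and 11 fell (45.8%), where all 5 nucleotide supply members had risen. Over all tested genes 15.6% rose and 17.9% fell, so the share that rose in this list was near that of all genes. The median of the list was -0.17 on the log2 scale. Those that rose included RRM2B, the alternative small subunit of ribonucleotide reductase (6.03 ± 0.127 FPKM with phosphoramidon and 3.80 ± 0.177 FPKM without it, 0.58), SAMHD1, a triphosphohydrolase that breaks down deoxynucleotides (6.11 ± 0.0580 and 3.95 ± 0.0911 FPKM, 0.55), and DCK, the deoxycytidine kinase of salvage (0.27). The lowest p-values among those that fell were those of NME1, a nucleoside diphosphate kinase (5.67 ± 0.411 and 9.27 ± 0.174 FPKM, -0.77), and SHMT2, the mitochondrial serine hydroxymethyltransferase of folate metabolism (21.1 ± 0.813 and 28 ± 1.79 FPKM, -0.48). The de novo purine enzymes GART (-0.25), PAICS (-0.26) and ATIC (-0.25) and the folate enzymes MTHFD1 (-0.28) and MTHFD2 (-0.21), named after their values were seen, also fell. These lists were compared by counts alone, and the difference between them was not tested.

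**Figure D4:**
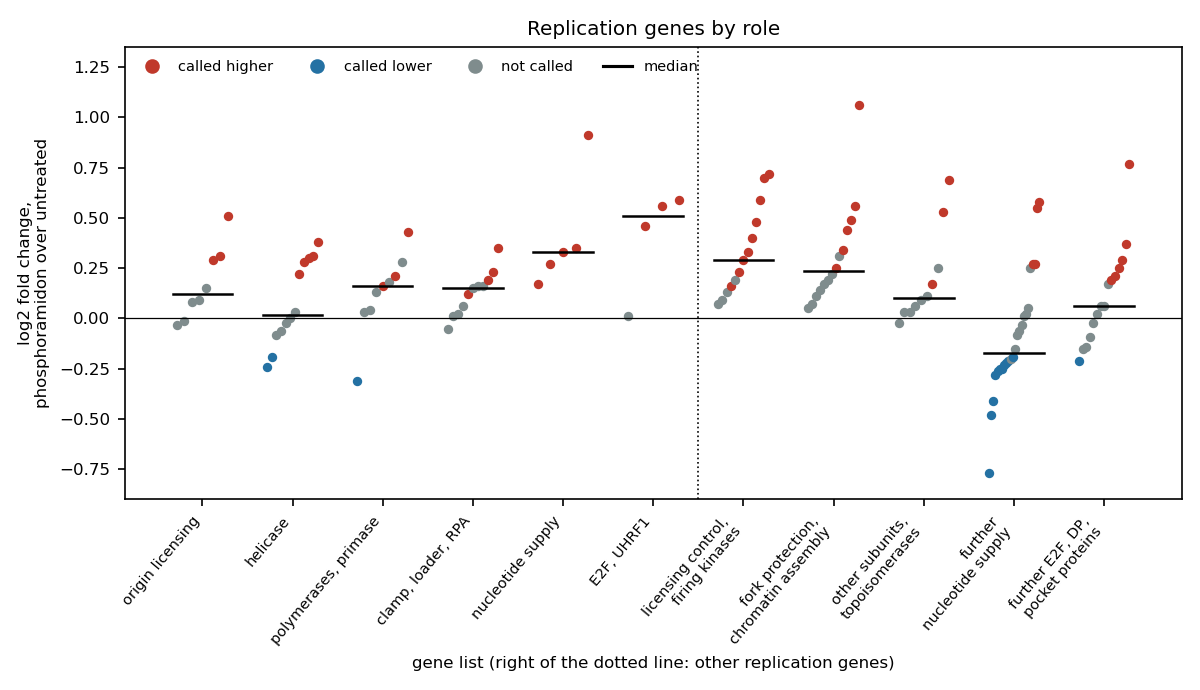
Log2 fold change of each tested gene, phosphoramidon over untreated, in the 6 roles of the 49 genes (left of the dotted line) and in 5 lists of other replication genes (right), with the limma call as colour and a bar at the median. The medians run from 0.51 for the E2F factors with UHRF1 to -0.17 for further nucleotide supply.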

How the data were processed

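RNA-seq expression was measured in 3 phosphoramidon and 3 untreated HK-2 libraries. The authors deposited FPKM for 38126 Ensembl IDs, the unit being read from the values. The submitters' processing notes list, without roles, GRCh38, HISAT2 2.1.0, DESeq2 1.22.1, Trimmomatic 0.38, MultiQC, featureCounts 1.6.0, CASAVA and FastQC. Strand use, gene annotation release and counting by read or pair were not given in the sources used here.

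FPKM times the merged exon length of GENCODE 29 fell on whole multiples of 1 step per library for 79.2% of 34623 genes above 0 (within 0.05 of a whole fragment), which gave library totals. For the rest a length giving whole fragments was searched. Recovered fragments set the filter (at least 10 in 3 libraries), the TMM factors (trimmed shares 0.3 of M and 0.05 of A values) and voom. The main test was limma 3.58.1 (R 4.3.3) on log2(FPKM / factor + 0.1), group alone, with a trended and robust prior (statmod 1.5.0), two-sided, Benjamini-Hochberg adjusted over all tested genes. The fit was tested on simulated data with the same spread for all genes. It called 36.7% of genes with a true change of 1.25-fold, 68.2% at 1.5-fold, 93.9% at 2-fold and 0.0569% of unchanged genes. Small changes can thus be missed. In the simulation 15819 of 16008 genes were unchanged, while 33.6% of tested genes were called in the real data. The adjusted p depends on how many genes change, and the spread was also set equal. The shares called may therefore differ in the real data.

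The members, lists and tests were chosen with earlier results of these data known. Per-library FPKM are given for up to 4 called members of each role with the lowest p, for members that fell and, beyond that rule, for POLA2, and other replication genes are named by the 2 lowest p per list and direction unless stated. Symbols came from a gene name table (37892 IDs matched), positions from GENCODE 29 and promoters from RefSeq. CD3E, a leukocyte marker, was not analysed here.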

Additional observations from a re-analysis of the deposited data

How the results depend on the processing

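The 23 higher and 3 lower members became 28 and 2 without TMM factors, 17 and 2 without a filter (MCM5, CDC45, GINS3, POLA1, FEN1, RPA1 and DUT lost), 24 and 3 with at least 50 fragments, 25 and 3 with voom, and were 23 and 3 with median-of-ratios factors and with pseudocounts of 1 or 0.01. No member changed direction with a call. RRM2 passed the test against 1.5-fold in these settings except without a filter, where 0 members did (limma's treat; its log2 fold change there was 0.91, with adjusted p = 4e-04 in the ordinary test). Over all genes, the 2530 called higher became 1543 without a filter. Beyond 1.5-fold, the 24 higher genes became 38 without TMM factors, 11 with a pseudocount of 1, 12 without a filter, 44 with at least 50 fragments and 69 with voom. The 106 lower became 57 with a pseudocount of 1, 51 without a filter and 204 with voom. Leaving out each library in turn gave 13 to 23 higher and 66 to 115 lower beyond 1.5-fold, 18 to 21 members higher and 2 to 3 lower. The cause of these shifts was not tested. With the replicate number as a block 24 members were higher and 3 lower (2564 and 2889 over all genes). DUT did not pass in that block fit (adjusted p = 0.062), which left 4 of 5 nucleotide supply members, while ORC3 (adjusted p = 0.048) and RFC1 (adjusted p = 0.029) passed, and the calls of the other members did not change. Deviations of same-numbered libraries correlated at 0.11, -0.02 and -0.01, and not every library correlated best with its own number, so the numbers were not taken as pairs. Depth limits the genes lowest in fragments, such as POLA2 with 61 to 103, and 3 libraries per group limit the calls of small changes.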
